A study of Mus musculus with 16 samples.

Results

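Cystatins and cathepsins are the inhibitors and the proteases of a shared system in the endosomes and lysosomes of microglia, the resident phagocytes of the brain. The 10 genes described here were taken by symbol from the 55385 genes listed in the table of read counts: the 3 cystatins *Cst7*, *Cst3* and *Cstb* and the 7 cathepsins *Ctsa*, *Ctsb*, *Ctsc*, *Ctsd*, *Ctsl*, *Ctss* and *Ctsz*. All 10 passed the filter on low counts that left 14513 genes for testing. RNA was sequenced from brain cells of mice at 20 weeks of age, after the meninges and choroid plexus had been taken out. The cells were sorted with magnetic beads against CD11b, an integrin chain on the surface of microglia and other myeloid cells. The study's methods name female 5xFAD mice among the mice crossed, without stating the sex of the mice sequenced. The 4 genotypes, with 4 libraries each, were WT (controls, with neither the deletion nor the transgenes), Card9-/- (a germline deletion, so absent from every cell of the animal), 5xFAD (the transgenes without the deletion) and Card9-/-5xFAD. The 5xFAD transgenes encode mutant human amyloid precursor protein and presenilin, are driven in neurons by a Thy1 promoter and lead to deposits of amyloid-β. CARD9 is an adaptor that carries signals from pattern recognition receptors in myeloid cells.

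Cathepsins are made as inactive precursors and become active as the compartment acidifies. *Ctsb*, *Ctsl*, *Ctss*, *Ctsz* and *Ctsc* encode cysteine proteases, *Ctsd* an aspartic protease, and *Ctsa* a serine carboxypeptidase that also stabilizes other lysosomal enzymes. Cystatins are tight, reversible inhibitors of the cysteine cathepsins: cystatin C (*Cst3*) is secreted, cystatin B (*Cstb*) stays in the cytosol and nucleus, and cystatin F (*Cst7*) is sent to the lysosome, where it can restrain cathepsin C. *Cst7* is known as a marker of microglia that respond to amyloid or to loss of myelin.

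Between 2970148 and 19333325 reads per library were counted on genes. Reads on Card9 were present in every library, with 29.1 ± 8.37 CPM (counts-per-million, scaled by TMM; SD, n = 4) in the libraries labelled Card9-/- against 36.8 ± 16.3 CPM in WT, and with 20.2 ± 11.8 CPM in those labelled Card9-/-5xFAD against 27.7 ± 8.29 CPM in 5xFAD. The counts are summed over each gene, without its exons apart, and *Gm13562* overlaps Card9 on the other strand, so these values do not check the labels, and Card9-/- below means the label. The microglia markers *P2ry12*, *Tmem119*, *Cx3cr1*, *Csf1r* and *Sall1* had counts in every library, and the neuron markers summed to at most 43.2 CPM. In bulk RNA, a smaller number of cells of a type and less RNA per cell cannot be told apart. The 3 libraries of fewest reads stood apart: WT replicate 1 (5346747 reads), Card9-/- replicate 4 (3229322 reads) and Card9-/-5xFAD replicate 4 (2970148 reads). Each had the lowest sum of the 5 microglia markers in its genotype, 8565 CPM against 18841 to 22147 CPM in WT, 10492 CPM against 14939 to 22679 CPM in Card9-/-, and 8052 CPM against 10228 to 18585 CPM in Card9-/-5xFAD. In 5xFAD, replicate 1 (7188423 reads) had the lowest sum, 7375 CPM against 12982 to 20268 CPM. The main results below are also given without the 3 libraries. None of the 3 is a 5xFAD library, so in 5xFAD against WT these fits drop WT replicate 1 and keep 5xFAD replicate 1. In Card9-/-5xFAD against 5xFAD they drop Card9-/-5xFAD replicate 4 and keep every 5xFAD library, and the interaction is dropped from as unequally.

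The members differed widely in level. Levels are compared between genes as CPM per kilobase (kb) of the exonic length of each gene. In WT, *Cst3* was highest in mean (6268 ± 2594 CPM per kb; SD, n = 4), followed by *Ctss* (4009 ± 961), and their ranges overlapped. *Ctsz* (1254 ± 495) and *Ctsd* (1078 ± 281) came next and overlapped each other, and neither reached the range of *Ctss*. *Ctsb* (450.0 ± 197), *Cstb* (429 ± 380), *Ctsa* (335 ± 174), *Ctsc* (189 ± 93.5) and *Ctsl* (157 ± 54.0) formed a run in which each overlapped the next. *Cst7* was last, with 37.0 ± 11.6 CPM per kb, below every WT library of the other 9 genes. In 5xFAD the order of the other 9 was the same except that *Ctsl* and *Ctsc* changed places, while *Cst7* (3710 ± 998 CPM per kb) stood in the fourth place, with libraries that overlapped those of *Ctsz* (3877 ± 799) and of *Ctsd* (2203 ± 679.7). *Ctsc* took the last place in 5xFAD with 203 ± 86.7 CPM per kb. With the length of the longest principal coding transcript instead, *Ctsc* was at 441 CPM per kb in WT and at 473 in 5xFAD, and *Cst3* at 9227 and 11615. The ranges of *Cst3* and *Ctss* then did not overlap in WT or in 5xFAD. In WT the mean of *Ctsc* then lay above those of *Ctsa* and *Cstb*. *Cst7* kept the last place in WT and the fourth place in 5xFAD with either length.

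**Figure D1:**
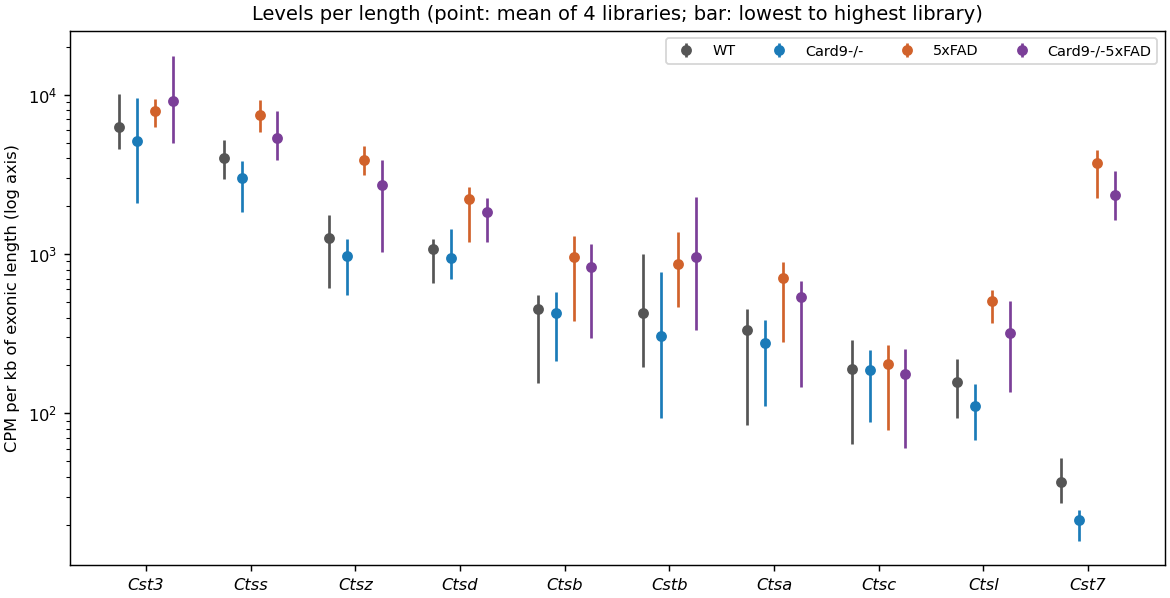
Levels of the 10 members as CPM per kb of exonic length on a log axis, by genotype. Points are means of 4 libraries and bars run from the lowest to the highest library. *Cst7* sits at 37.0 in WT and 21.4 in Card9-/-, and at 3710 in 5xFAD and 2357 in Card9-/-5xFAD, while *Ctsc* stays between 176 and 203 in all 4 genotypes.

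The 10 members together took 2.60 ± 0.243% of the counted reads in WT (SD, n = 4; range 2.36 to 2.93%), 2.18 ± 0.411% in Card9-/- (1.69 to 2.68%), 4.41 ± 0.628% in 5xFAD (3.65 to 5.08%) and 3.81 ± 0.518% in Card9-/-5xFAD (3.25 to 4.50%). The ranges of the genotypes with transgenes lay above those without. The 7 cathepsins took 1.72 ± 0.544% in WT and 3.12 ± 0.642% in 5xFAD. By reads counted, *Cst3* stood between the first and the sixth place of all genes in each library. *Cst7* stood between places 3723 and 6109 in WT, and between places 17 and 46 in 5xFAD.

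The members lie on 6 chromosomes of GRCm38 (GENCODE M21). *Cst7* (chr2:150570415-150578944, plus strand) and *Cst3* (chr2:148871722-148875692, minus strand) belong to the cystatin cluster of chromosome 2, and the same chromosome carries *Ctsa* (chr2:164832873-164841032) and *Ctsz* (chr2:174427493-174439039). These 4 genes are on the chromosome of Card9, between 122.5 and 148.1 Mb from it. *Ctsd* (chr7:142375911-142388038) and *Ctsc* (chr7:88278085-88310888) lie on chromosome 7. *Ctsl* (chr13:64359337-64370890), *Ctsb* (chr14:63122462-63145923), *Ctss* (chr3:95526786-95556403) and *Cstb* (chr10:78425669-78427622) are each alone on their chromosome among the members. *Ctsa* overlaps *Neurl2* and *Pltp*, *Ctsb* overlaps *Fdft1*, *Ctsz* overlaps *Nelfcd*, *Ctsl* overlaps *Gm47123* and *Ctsc* overlaps *Gm26522*, each on the opposite strand. *Gm49369* overlaps *Ctsd*, *Gm49230* overlaps *Ctsl* and *Hmgb1-ps5* overlaps *Ctss* on the same strand. Since the strand setting of the counting is not given in the sources used here, reads of such pairs cannot be told apart.

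Promoter windows are shown for the 3 members that passed the test in 5xFAD against WT below and for the 2 that hold a long E-box. The E-box CACGTG is bound by basic helix-loop-helix factors, among them the MiT/TFE factors that regulate lysosomal genes, and its extended form TCACGTGA is the core of the element known from lysosomal promoters. Each window runs from 250 bases before to 50 bases after a RefSeq transcription start (GRCm38.p6), is written 5′ to 3′ on the strand of the gene, and has E-boxes in capitals.
*Cst7* (chr2:150570165-150570464, plus strand): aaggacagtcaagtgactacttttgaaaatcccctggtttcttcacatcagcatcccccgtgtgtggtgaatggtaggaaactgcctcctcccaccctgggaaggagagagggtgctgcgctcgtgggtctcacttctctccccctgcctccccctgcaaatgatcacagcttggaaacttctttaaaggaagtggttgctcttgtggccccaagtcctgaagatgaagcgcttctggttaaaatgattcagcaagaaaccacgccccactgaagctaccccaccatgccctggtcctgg
*Ctsl* (chr13:64370471-64370770, minus strand): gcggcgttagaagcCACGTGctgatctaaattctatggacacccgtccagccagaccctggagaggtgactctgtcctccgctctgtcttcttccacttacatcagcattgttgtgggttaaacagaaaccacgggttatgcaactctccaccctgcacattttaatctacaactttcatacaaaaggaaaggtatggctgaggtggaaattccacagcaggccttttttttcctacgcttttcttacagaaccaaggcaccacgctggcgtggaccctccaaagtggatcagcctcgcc
*Ctsz* (chr2:174438990-174439289, minus strand): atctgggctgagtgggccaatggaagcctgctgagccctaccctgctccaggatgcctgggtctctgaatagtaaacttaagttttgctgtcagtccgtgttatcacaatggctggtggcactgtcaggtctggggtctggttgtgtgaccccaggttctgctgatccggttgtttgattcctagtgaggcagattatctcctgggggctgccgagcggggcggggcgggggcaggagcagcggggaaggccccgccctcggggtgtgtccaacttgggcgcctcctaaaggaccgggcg
*Ctsd* (chr7:142387778-142388077, minus strand): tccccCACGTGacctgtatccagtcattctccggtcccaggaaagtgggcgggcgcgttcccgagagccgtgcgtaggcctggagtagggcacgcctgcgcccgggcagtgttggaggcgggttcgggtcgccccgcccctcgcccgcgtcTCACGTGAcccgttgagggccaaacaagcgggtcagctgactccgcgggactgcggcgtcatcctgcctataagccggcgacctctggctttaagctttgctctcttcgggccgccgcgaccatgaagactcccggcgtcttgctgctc
*Ctsa*, downstream start (chr2:164833523-164833822, plus strand): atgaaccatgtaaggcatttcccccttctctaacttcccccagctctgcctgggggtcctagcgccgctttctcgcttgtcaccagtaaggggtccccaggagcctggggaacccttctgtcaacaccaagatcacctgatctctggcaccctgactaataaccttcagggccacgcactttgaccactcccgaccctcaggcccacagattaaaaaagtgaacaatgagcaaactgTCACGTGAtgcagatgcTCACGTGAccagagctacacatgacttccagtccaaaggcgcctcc

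RefSeq windows matched 8 of the 10 members, 9 windows in all since *Ctsa* has 2. TCACGTGA was found in the windows of 2 members, *Ctsd* and *Ctsa*, and in 0.974% of all 32851 promoter windows of the same length. The *Ctsa* window held it at 2 places around the start, and the *Ctsd* window held it once and a further CACGTG near its 5′ end. CACGTG (which TCACGTGA contains) was found in *Ctsa*, *Ctsd* and *Ctsl*, against 7.15% of all windows. GAGGAAGT, a form of the site of the myeloid factor PU.1 searched on both strands, was found in *Ctsc* and *Ctss*, against 3.2% of all windows. TGAGTCA, an AP-1 site also searched on both strands, was in no member's window, against 5.2% of all windows. The windows of *Cst7*, *Ctsz* and *Cst3* held none of these letters.

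The first comparison asked how the members differed with the 5xFAD transgenes in mice without the Card9 deletion. *Cst7* was 100.2 times higher in 5xFAD than in WT, *Ctsl* 3.22 times and *Ctsz* 3.09 times higher. These 3 of the 10 members passed the test, all as higher (edgeR's quasi-likelihood test, Benjamini-Hochberg adjusted p under 0.1), where 1.57% of all genes tested passed as higher. The fitted log2 fold change was above 0 for 10 of 10 members, with a median of 1.05, against -0.15 over all genes tested. The libraries did not overlap for 4 members, *Cst7*, *Ctsl*, *Ctss* and *Ctsz*, where 4.35% of all genes were higher in every 5xFAD library.

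Among the inhibitors, *Cst7* had 39.1, 28.1, 51.6 and 27.2 CPM in the WT libraries and 4417, 3818, 4168 and 2229 CPM in the 5xFAD libraries. Every 5xFAD library lay far above every WT library, and the lowest of the 4 was replicate 4. The change was 6.65 on the log2 scale (SE 0.404, adjusted p = 2.03e-07, edgeR), the lowest p of all genes tested. *Cst7* was called in all 16 fits that left out 1 library, with log2 fold changes of 6.53 to 6.98.

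*Cst3* had 12771, 5750, 7198 and 6023 CPM in WT and 10578, 9502, 11900 and 7976 CPM in 5xFAD. The groups overlapped through WT replicate 1, whose value was above every 5xFAD library. The change was 0.33 on the log2 scale (SE 0.477, adjusted p = 0.846, edgeR), and 0.70 (SE 0.324, adjusted p = 0.203) without the 3 libraries. *Cstb* had 601, 148, 168 and 118 CPM in WT and 824, 496, 494 and 282 CPM in 5xFAD, and again only WT replicate 1 overlapped the 5xFAD libraries. Its change was 1.02 on the log2 scale (SE 0.732, adjusted p = 0.654, edgeR), and 1.89 (SE 0.406, adjusted p = 0.0155) without the 3 libraries.

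Among the cysteine cathepsins, *Ctsl*, whose protein is a broad endopeptidase, had 610.4, 1155, 1424 and 882 CPM in WT and 3269, 3549, 3890 and 2401 CPM in 5xFAD. The lowest 5xFAD library was above the highest WT library, and the change was 1.69 on the log2 scale (SE 0.400, adjusted p = 0.045, edgeR). The call was lost without WT replicate 1, 2 or 4 or 5xFAD replicate 2 or 3 (adjusted p = 0.115 to 0.189). *Ctsz*, whose protein is a carboxypeptidase, had 878.5, 2145, 2535 and 1669 CPM in WT and 4524, 6168, 6922 and 4733 CPM in 5xFAD. These ranges were apart too, and the change was 1.63 on the log2 scale (SE 0.418, adjusted p = 0.072, edgeR). This call was kept in 3 of the 16 fits that left out 1 library, those without Card9-/- replicate 4, Card9-/-5xFAD replicate 3 or Card9-/-5xFAD replicate 4.

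*Ctss*, whose protein trims the invariant chain of MHC class II, had 4022, 5758, 7088 and 4908 CPM in WT and 9323, 10589, 12566 and 7925 CPM in 5xFAD. The groups did not overlap, and the log2 fold change of 0.89 (SE 0.310) did not pass the test (adjusted p = 0.245, edgeR). *Ctsb*, whose protein is both an endopeptidase and a dipeptide-releasing peptidase, had 938, 3338, 3243 and 3374 CPM in WT and 2309, 6597, 6462 and 7891 CPM in 5xFAD. Replicate 1 of both genotypes was far below the other 3, and the change was 1.09 on the log2 scale (SE 0.508, adjusted p = 0.451). *Ctsc*, whose protein activates granule serine proteases by removing dipeptides, had 375, 1679, 1252 and 1088 CPM in WT and 459, 1480.0, 1211 and 1567 CPM in 5xFAD. The groups covered nearly the same range, and the change was 0.10 on the log2 scale (SE 0.510, adjusted p = 0.962, edgeR).

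The aspartic protease gene *Ctsd* had 1549, 2798, 2926 and 2867 CPM in WT and 2801, 5754, 6222 and 5944 CPM in 5xFAD. Replicate 1 was the low library in both genotypes, and 5xFAD replicate 1 fell within the WT range. The change was 1.03 on the log2 scale (SE 0.347, adjusted p = 0.224, edgeR). *Ctsa* had 399, 2137, 2134 and 1649 CPM in WT and 1316, 4179, 4198 and 3590.4 CPM in 5xFAD. Replicate 1 was again lowest in each genotype, and the change was 1.07 on the log2 scale (SE 0.573, adjusted p = 0.532).

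**Figure D2:**
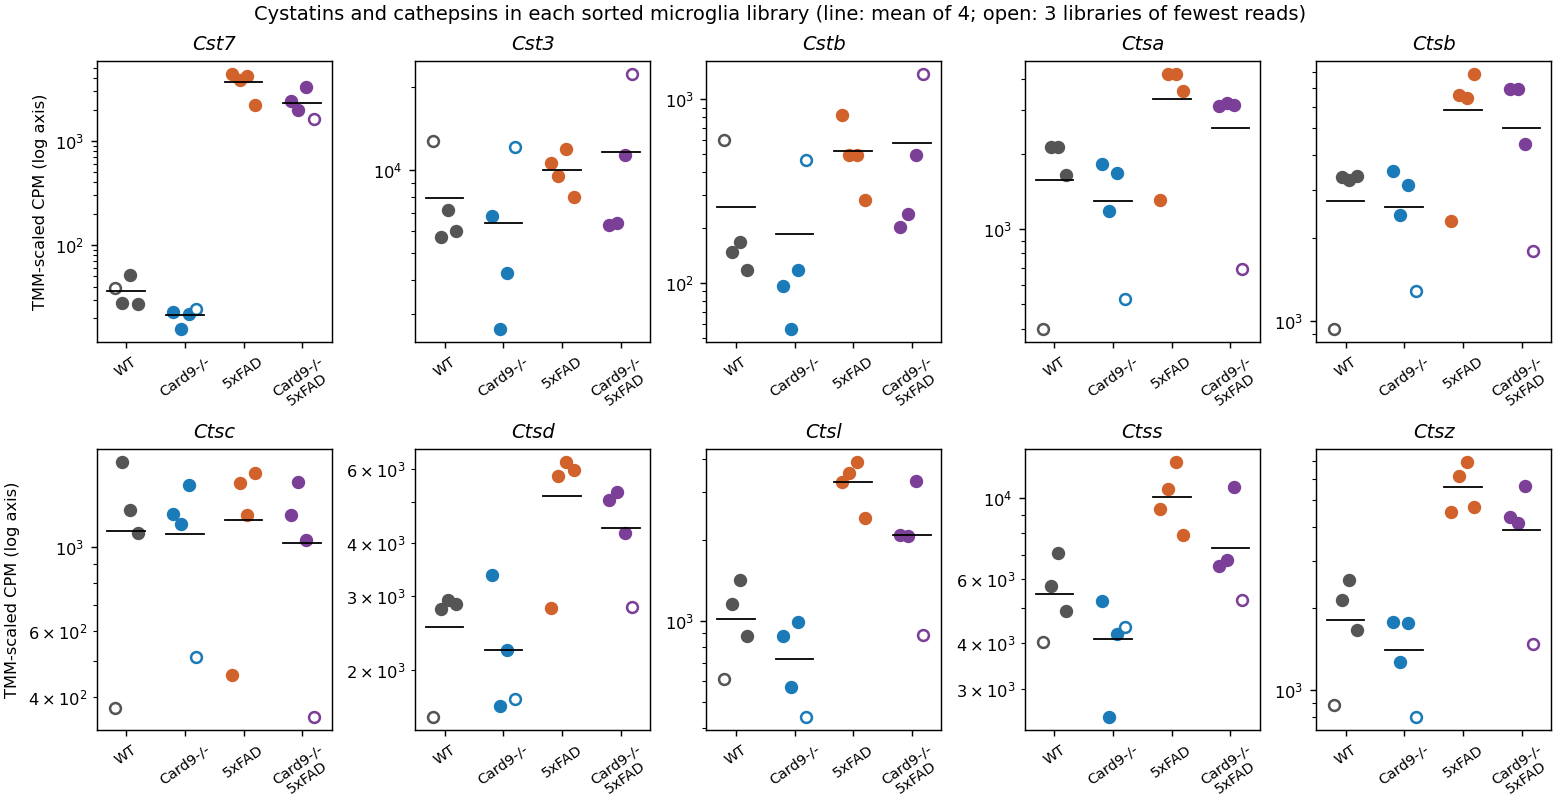
CPM of each member in each of the 16 libraries on a log axis, with genotype on the x axis. Points are libraries in the order of their replicate number, lines are means of 4, and open points are the 3 libraries of fewest reads. Every *Cst7* point with transgenes lies above every point without, whereas within their genotypes the open points lie at the bottom for *Ctsa*, *Ctsb*, *Ctsc*, *Ctsl* and *Ctsz* and at the top for *Cst3* and *Cstb*.

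Libraries of the same number deviated together to unequal degrees, with r of 0.27 to 0.71 for WT and 5xFAD and 0.13 to 0.73 for Card9-/- and Card9-/-5xFAD. The lower of these did not exceed the 0.49 reached by a same-numbered pair across Card9 labels. From these values, a fit with the replicate number as a block within each Card9 genotype was added after the data were seen. In that fit 8 of the 10 members passed in 5xFAD against WT, all except *Cst3* (adjusted p = 0.346) and *Ctsc* (adjusted p = 0.664). The calls over all genes rose too, from 304 to 2322, and 8.93% of all genes tested passed as higher. The blocked adjusted p was 0.00803 for *Cstb*, 0.0058 for *Ctsa*, 0.00773 for *Ctsb*, 0.0121 for *Ctsd* and 0.0389 for *Ctss* (edgeR). The labels do not give this pairing, which was chosen from these same counts, so the blocked p-values are given as a description. With a single block for the number over all 4 genotypes, 3 members passed as in the fit without a block, and 1.57% of all genes passed as higher.

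The second comparison asked the same of the transgenes in mice labelled Card9-/-. Its groups share no library with those of the first. Both were fitted in 1 model over all 16 libraries, with shared scaling and a shared estimate of the spread, so their tests are not independent. *Cst7* was 110.1 times and *Ctsl* 2.89 times higher in Card9-/-5xFAD than in Card9-/-. These 2 members passed the test, where 1.49% of all genes tested passed as higher. The log2 fold change was above 0 for 9 of 10 members, with a median of 0.96, against -0.15 over all genes tested. The libraries did not overlap for *Cst7* and *Ctss*, where 3.53% of all genes were higher in every Card9-/-5xFAD library.

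*Cst7* had 22.6, 15.7, 21.8 and 24.5 CPM in Card9-/- and 2406, 2005, 3269 and 1616 CPM in Card9-/-5xFAD. The groups were again far apart, with a change of 6.78 on the log2 scale (SE 0.407, adjusted p = 9.36e-08, edgeR). *Ctsl* had 880, 569, 993 and 441 CPM in Card9-/- and 2077, 2067, 3300 and 886 CPM in Card9-/-5xFAD. Card9-/-5xFAD replicate 4 fell within the range of Card9-/-, and the change was 1.53 on the log2 scale (SE 0.398, adjusted p = 0.0819, edgeR). This call was kept in 3 of the 16 fits that left out 1 library, those without WT replicate 1, Card9-/-5xFAD replicate 4 or 5xFAD replicate 4.

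*Ctsz* had 1784, 1270, 1766 and 797 CPM in Card9-/- and 4328, 4133, 5622 and 1484 CPM in Card9-/-5xFAD, so that replicate 4 was lowest in both. Its change was 1.47 on the log2 scale (SE 0.417, adjusted p = 0.118, edgeR), and with the replicate number as a block over all genotypes it was 1.41 (adjusted p = 0.0857), where 1.74% of all genes passed as higher. *Ctss* had 5229, 2512, 4246 and 4427 CPM in Card9-/- and 6502, 6752, 10697 and 5266 CPM in Card9-/-5xFAD, groups that came close without overlapping. Its change was 0.83 on the log2 scale (SE 0.309, adjusted p = 0.254). *Ctsd* (0.96, SE 0.346), *Ctsb* (0.96, SE 0.506), *Ctsa* (0.96, SE 0.572) and *Cst3* (0.85, SE 0.480) had log2 fold changes of like size that did not pass. *Cstb* had a larger and less certain log2 fold change of 1.65 (SE 0.744, adjusted p = 0.382), and *Ctsc* one of -0.08 (SE 0.510, adjusted p = 0.966, edgeR).

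In the fit with blocks within each Card9 genotype, 9 of the 10 members passed in this comparison, all except *Ctsc* (adjusted p = 0.629), while the calls over all genes rose from 286 to 2966 and 11.2% of all genes passed as higher. The blocked adjusted p was 0.0544 for *Cst3*, 0.00111 for *Cstb*, 0.0203 for *Ctsa* and *Ctsb*, 0.0114 for *Ctsd*, 0.0412 for *Ctss* and 0.00227 for *Ctsz* (edgeR). These p-values too are a description, since the pairing was chosen from these same counts. Without the 3 libraries of fewest reads and without a block, 6 members passed in this comparison (*Cst7*, *Cstb*, *Ctsd*, *Ctsl*, *Ctss* and *Ctsz*) and 5 passed in 5xFAD against WT (*Cst7*, *Cstb*, *Ctsd*, *Ctsl* and *Ctsz*). The calls over all genes rose as well, from 286 to 1494 and from 304 to 1864, and 6.73% and 8.74% of all genes passed as higher. The length slope of a library is the slope of its deviations from the mean log2 CPM of each gene on log2 gene length. Without the library of the lowest length slope in each genotype (WT replicate 1, Card9-/- replicate 4, 5xFAD replicate 1 and Card9-/-5xFAD replicate 3), *Cstb* was at 2.79 in Card9-/-5xFAD against Card9-/- (SE 0.650, adjusted p = 0.0403, edgeR) and was called, and *Ctsl* lost its call (1.07, adjusted p = 0.113). In that fit 7.93% of all genes passed as higher in this comparison. In 5xFAD against WT the same fit called *Cst7*, *Ctsl* and *Ctsz*, where 1.84% of all genes passed as higher. The fit dropped Card9-/- replicate 4 but kept Card9-/-5xFAD replicate 4, whose slope (-0.153) was close to that of replicate 3 (-0.159). In Card9-/-5xFAD against Card9-/-, *Cstb* was at 2.67 without Card9-/- replicate 4 alone. It was at 0.77 without Card9-/-5xFAD replicate 4 alone.

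**Figure D3:**
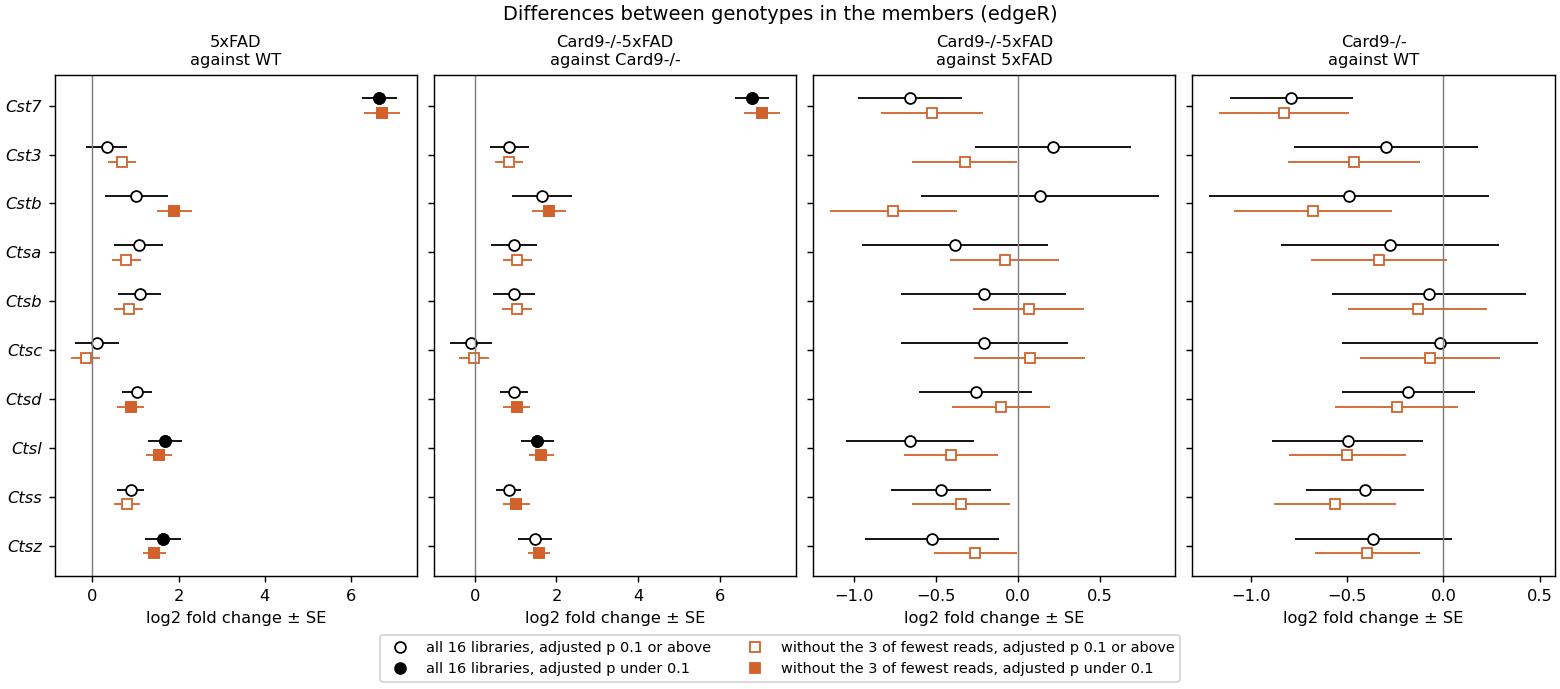
Log2 fold changes with SE for the 10 members in the 4 comparisons of genotypes, with all 16 libraries (circles) and without the 3 of fewest reads (squares). Filled symbols have an adjusted p under 0.1 in edgeR, and the x axes differ between panels. *Cst7* lies at 6.65 and 6.78 in the transgene comparisons, *Ctsc* lies near 0 in both, and no symbol is filled in the Card9 comparisons.

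The ratios of *Cst7* to *Cst3*, *Ctsc* and *Ctsl* also moved, as a description without a test. Per length, *Cst7* amounted to 0.63 ± 0.219 per 100 *Cst3* in WT (SD, n = 4) and to 46.5 ± 7.99 per 100 in 5xFAD. Against *Ctsc*, the ratio ranged from 0.0985 to 0.614 in WT and from 8.38 to 56.7 in 5xFAD, and from 0.0801 to 0.283 in Card9-/- and from 7.96 to 26.9 in Card9-/-5xFAD. *Cst7* was thus the rarer transcript of the pair in every library without transgenes and the more abundant in every library with them. The highest ratio of each genotype came from WT replicate 1, Card9-/- replicate 4, 5xFAD replicate 1 and Card9-/-5xFAD replicate 4, where *Ctsc* was lowest. Against *Ctsl*, the ratio was 0.256 ± 0.115 in WT and 7.28 ± 1.16 in 5xFAD.

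The third comparison set Card9-/-5xFAD against 5xFAD, and asked how the members differed with the labelled deletion where the transgenes were present. None of the 10 members passed, and 0.0% of all genes tested passed (edgeR, adjusted p under 0.1), with 366 of 14513 genes at an unadjusted p under 0.05. DESeq2 called 2 genes on all libraries and 9 on only the groups compared, none of them a member. *Cst7* was at 2324 ± 708 CPM in Card9-/-5xFAD and 3658 ± 984 CPM in 5xFAD (SD, n = 4), and the groups overlapped. Its change was -0.65 on the log2 scale (SE 0.317, adjusted p = 0.993, edgeR). *Ctsl* (-0.65, SE 0.391), *Ctsz* (-0.52, SE 0.409) and *Ctss* (-0.47, SE 0.308) had log2 fold changes next in size below 0. Those of *Ctsa* (-0.38, SE 0.567), *Ctsd* (-0.26, SE 0.343), *Ctsb* (-0.21, SE 0.502) and *Ctsc* (-0.20, SE 0.511) were smaller than their SE. *Cst3* (0.22, SE 0.477) and *Cstb* (0.14, SE 0.725) lay above 0, and without the 3 libraries they were at -0.32 (SE 0.321) and -0.76 (SE 0.389). *Ctsb* and *Ctsc* then turned to 0.07. Without Card9-/-5xFAD replicate 4 alone, *Cst3* was at -0.31, *Cstb* at -0.75, *Ctsb* at 0.07 and *Ctsc* at 0.08.

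The last pairwise comparison set Card9-/- against WT, without transgenes. None of the 10 members passed, and 0.0% of all genes passed, with 597 genes at an unadjusted p under 0.05 in edgeR. DESeq2 called 5 genes on all libraries and 8 on only the groups compared, none of them a member. With the replicate block and the length slope, 242 genes were called here, again no member. *Cst7* was lower in every Card9-/- library (15.7 to 24.5 CPM) than in every WT library (27.2 to 51.6 CPM), the only member without overlap here, where 1.6% of all genes were lower in every library. Its change was -0.79 on the log2 scale (SE 0.320, adjusted p = 0.970, edgeR), and -0.83 (SE 0.337, adjusted p = 0.724) without the 3 libraries. The other 9 log2 fold changes lay between -0.50 for *Ctsl* (SE 0.390) and -0.02 for *Ctsc* (SE 0.510). Those of *Cst3* and *Cstb* turned from -0.30 and -0.49 to 0.02 and 0.34 when WT replicate 1 alone was left out.

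The interaction asked whether the transgene difference itself differed by Card9 label. None of the 10 members passed and 0.0% of all genes passed (edgeR, adjusted p under 0.1), with 78 genes at an unadjusted p under 0.05 and 1 gene, no member, called by DESeq2 on all libraries. The interaction was 0.14 on the log2 scale for *Cst7* (SE 0.447), -0.16 for *Ctsl* (SE 0.551) and -0.16 for *Ctsz* (SE 0.577), each adjusted p = 1 in edgeR. The other 7 interactions lay between -0.19 for *Ctsc* (SE 0.722) and 0.63 for *Cstb* (SE 1.03). Of the 10 values, 3 were above 0, and without the 3 libraries of fewest reads 9 were. All 7 cathepsins then turned above 0, from 0.09 for *Ctsl* (SE 0.416) to 0.26 for *Ctsa* (SE 0.484), and *Cstb* turned to -0.08 (SE 0.561). The median went from -0.09 to 0.14. These values drop WT replicate 1 and keep 5xFAD replicate 1. Without WT replicate 1 alone, 9 of the 10 interactions were above 0, with a median of 0.10. A p that misses the threshold at these errors does not show that the transgene difference was alike under both labels.

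The reads counted on the members did not follow library depth alike. The deepest library, Card9-/- replicate 2, had 6.51 times the counted reads of the shallowest, Card9-/-5xFAD replicate 4. These libraries also differ in the transgenes, so ratios between them mix the transgene difference with depth. Reads on *Cst3* differed by 1.15 times between the same libraries, 64315 against 55764, and stayed between 37068 and 72538 over all 16 libraries. Reads on *Ctsc* differed by 31.5 times, 27856 against 885. The CPM of *Cst3* was highest in the shallowest library, with 22332 CPM in Card9-/-5xFAD replicate 4. *Cstb* ran the same way, with 1362 reads in the deepest and 3427 in the shallowest library. The other cathepsins lay between, from 4.62 times for *Ctss* to 16.5 times for *Ctsa*. Whether duplicate reads were removed before counting is not given in the sources used here, and the part of read filtering, RNA quality or cell number in these values was not tested.

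**Figure D4:**
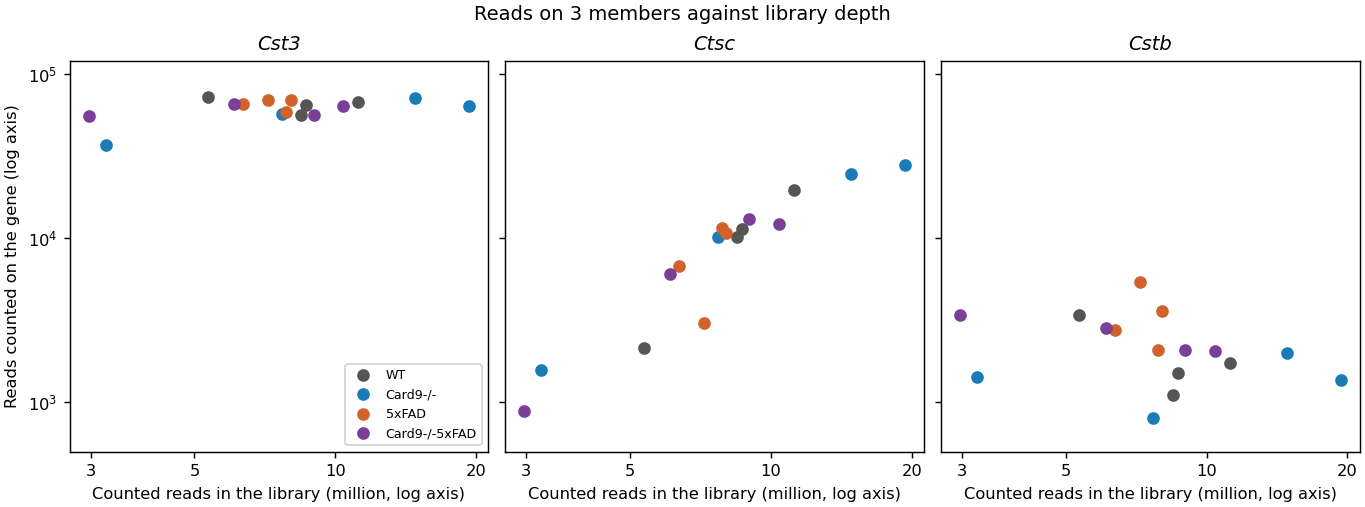
Reads counted on *Cst3*, *Ctsc* and *Cstb* against the counted reads of the library, both on log axes, for the 16 libraries coloured by genotype. Reads on *Cst3* stay between 37068 and 72538 at every depth, those on *Ctsc* run from 885 to 27856, and those on *Cstb* show no rise with depth.

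The genes closest to each member over the 16 libraries are given as a description, since the points share depth and genotype. *Cst7* was most like *Yipf7*, *Baiap2l2* and *Fabp3* (Pearson r of log2 CPM from 0.984 to 0.990), and after the genotype means were taken out these r were 0.597, -0.112 and 0.360. *Ctsl* was most like *Cd9*, *Cd68* and *Prdx4* (0.984 to 0.994; 0.959 to 0.983 within genotypes), which encode a tetraspanin, a lysosomal membrane glycoprotein of macrophages and a peroxiredoxin. *Ctsz* was most like the glycolytic genes *Aldoa* and *Tpi1* and again *Cd9* (0.983 to 0.993). *Ctsb* was most like *Grn*, *Hexa* and *C3ar1* (0.967 to 0.977), *Ctsa* most like *Eno1*, *Atp6v1c1* and *Glmp* (0.979 to 0.991), and *Ctsd* most like *Pld3*, *Ephx1* and *Fuca1* (0.920 to 0.944), sets that hold several lysosomal genes. *Cst3* was closely followed by *Tyrobp* and *Tmsb4x* (0.968 and 0.967) and *Cstb* most like *Mrpl54*, *S100a1* and *Ndufb9* (0.990 to 0.995), with r of 0.975 or more within genotypes. *Ctsc* was closely followed by *Lmf1* and *Gm7964* (0.993 and 0.986), and *Ctss* most like *Ubb*, *Tmem176b* and *Mrps23* (0.947 to 0.961).

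Other genes of the system were counted by list. Of 16 other cathepsins, 6 passed the filter on low counts, and 1 of these 6, *Ctse*, rose in each transgene comparison. Of all genes tested, 1.57% and 1.49% passed as higher. *Ctse*, which encodes an endosomal aspartic protease, was at 58.9 ± 21.7 CPM in WT and 620.0 ± 220 CPM in 5xFAD (SD, n = 4), a change of 3.39 on the log2 scale (SE 0.481, adjusted p = 0.00103, edgeR). In Card9-/- and Card9-/-5xFAD it was at 31.2 ± 4.43 and 363 ± 187 CPM, a change of 3.54 on the log2 scale (SE 0.485, adjusted p = 0.000759). The median log2 fold change over the 6 was -0.16 and -0.04, beside -0.15 over all genes tested in both comparisons. In each, 2 of the 6 had an unadjusted p under 0.05 (edgeR), beside 10.8% and 12.2% of all genes. Of 20 other cystatins and related inhibitors in the table, 3 passed the filter (*Stfa2l1*, *Cstdc4* and *Ctla2a*, named after their values were seen), and 0 of 3 were called in any comparison (edgeR). At an unadjusted p under 0.05, 1 of the 3 passed in each transgene comparison, where 10.8% and 12.2% of all genes did. The near-identical copies of stefin A could split reads, so values of these genes are uncertain.

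Of 15 other lysosomal proteases and genes of their activation and delivery, all passed the filter and 1, *Dpp7*, rose in each transgene comparison. *Dpp7*, a dipeptidyl peptidase gene, was at 61.4 ± 30.5 CPM in WT and 218 ± 77.2 CPM in 5xFAD (log2 fold change 1.83, SE 0.411, adjusted p = 0.0330, edgeR), and at 60.6 ± 12.8 and 183 ± 58.5 CPM in Card9-/- and Card9-/-5xFAD (1.59, SE 0.409, adjusted p = 0.077). Leaving out 1 library at a time, the first call was kept in 13 of 16 fits (lost without WT replicate 4 or 5xFAD replicate 2 or 3) and the second in 6 of 16, while *Ctse* was called in 16 of 16 for both. The median over the 15 was 0.14 and 0.03. An unadjusted p under 0.05 (edgeR) was found for 4 and 3 of the 15, beside 10.8% and 12.2% of all genes. The 1 call in each comparison stands beside 1.57% and 1.49% of all genes passing as higher. None of the genes on the 3 lists was called in the Card9 comparisons or the interaction, where the main edgeR fit called 0 genes.

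The levels of markers of other cells are given beside these results. Over 6 markers of border-associated macrophages, the summed level was 925 to 1606 CPM in WT and 493 to 801 CPM in 5xFAD, and 744 to 1723 CPM in Card9-/- and 334 to 1680 CPM in Card9-/-5xFAD. Monocyte markers (5 of 5 with counts) summed to 143 to 397 CPM in WT and 99.7 to 230 CPM in 5xFAD. Neutrophil markers (6 of 6) summed to 961 to 2944 and 700 to 1801 CPM, and reached 5547 CPM in Card9-/- replicate 4 and 5365 CPM in Card9-/-5xFAD replicate 4. T or NK cell markers (6 of 6 with a count somewhere, *Cd3e* at 0 in 12 libraries and *Cd8a* in 11) summed to 48.1 to 370.4 CPM in WT, 43.4 to 62.2 CPM in Card9-/-, 36.6 to 193 CPM in 5xFAD and 25.6 to 59.7 CPM in Card9-/-5xFAD. Oligodendrocyte markers summed to 186 to 779.5 CPM in WT and 151 to 714 CPM in 5xFAD. Choroid plexus markers summed to 14.3 to 1611 CPM in WT and 264 to 1333 CPM in 5xFAD. They summed to 47.8 to 2502 CPM in Card9-/- and 3.06 to 1128.5 CPM in Card9-/-5xFAD, each highest in replicate 4. The part of these cells in the values of the members was not tested.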

How the data were processed

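RNA from CD11b-sorted brain cells was sequenced in 16 libraries. According to the study's methods and the submitters' processing notes, the authors aligned reads to mm10 with HISAT2, filtered them with SAMtools and counted them per gene with HTSeq, and deposited the raw counts; versions, the strand setting and any removal of duplicates are not given in the sources used here. Symbols were matched to GENCODE M21 for positions and lengths. The labels do not say whether replicates are separate mice, so p-values measure the spread between these libraries, which may be technical. No 2 libraries of 1 genotype agreed within sampling noise (chi-square per degree of freedom at least 6.28 over 24 pairs).

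Counts were fitted with edgeR 4.0.16 (R 4.3.3): TMM scaling, filterByExpr with a minimum count of 10, 1 quasi-likelihood model of 4 genotypes over all 16 libraries, and Benjamini-Hochberg adjustment over 14513 genes at 0.1. Fold changes are on the log2 scale, and SE is the log2 fold change over the root of F. The script was tested on simulated data. Levels are TMM-scaled CPM. The members and lists were chosen with earlier results of these data known. All members are named in every comparison, with genes of the other lists that were called and the 3 genes of highest Pearson r to each member (log2 CPM, prior count 2), except that a few genes of these lists are not reported here and were left out of summed marker levels.

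The alternatives were DESeq2 1.42.0, its size factors in edgeR, other filters, a threshold of 0.05, only the groups compared, a replicate block, a fit with 1 surrogate variable (sva 3.50.0), a length slope per library (of each gene's deviation from its mean log2 CPM on its log2 exonic length) and leaving out each library. The block within each Card9 genotype, the block with the slope, the principal transcript length, and the fits without the 3 libraries of fewest reads or the 4 of lowest slope were added after seeing the data. Deviations of same-numbered libraries from their genotype means correlated at 0.27 to 0.71 for 5xFAD and WT and at 0.13 to 0.73 for Card9-/-5xFAD and Card9-/-, and at -0.64 to 0.26 and -0.55 to 0.49 in the Card9 comparisons. The numbers were therefore taken as pairing the libraries within each Card9 genotype only, from the data, since the labels do not say what a number shares.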

Additional observations from a re-analysis of the deposited data

Results flagged for a closer look

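Within a genotype, 6 of the 40 sets of 4 values held a library farther from the others than Dixon's 95% critical ratio for 4 values. Chance passes that ratio in about 1 of 20 independent sets of normally distributed values. The members share their libraries and several move together, so the 40 sets are not independent and their number is a description. *Cstb* was at 601 CPM in WT replicate 1, where the others had 118 to 168 CPM, and at 467.5 CPM in Card9-/- replicate 4, where the others had 56.3 to 118 CPM. *Ctsa* was at 690.0 CPM in Card9-/-5xFAD replicate 4, where the others had 3129 to 3201 CPM. *Ctsb* was at 937.5 CPM in WT replicate 1, where the others had 3243 to 3374 CPM. *Ctsd* was at 1549 CPM in WT replicate 1, where the others had 2798 to 2926 CPM, and at 2801 CPM in 5xFAD replicate 1, where the others had 5754 to 6222 CPM. Of these values, 5 came from the 3 libraries of fewest reads.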

How the results depend on the processing

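*Cst7* was called higher in both transgene comparisons under every alternative run. The number of members called, 3 in 5xFAD against WT and 2 in Card9-/-5xFAD against Card9-/-, became 5 and 4 with DESeq2 on all libraries, 5 and 3 with DESeq2 on the groups compared, 1 and 1 without the filter, 5 and 5 with the length slope, and 8 and 9 with 1 surrogate variable. It was 2 and 1 at a threshold of 0.05, 3 and 1 with edgeR on the groups compared, and 5 and 6 without the 3 libraries of fewest reads. The calls over all genes, 304 and 286, moved too: 565 and 812 with DESeq2 on all libraries, 668 and 435 with DESeq2 on the groups compared, 208 and 185 without the filter, 171 and 148 where every library had to reach 10 counts, 916 and 845 with the slope, 2068 and 2567 with 1 surrogate variable, 294 and 96 with edgeR on the groups compared, 1864 and 1494 without the 3 libraries, and 373 and 1573 without the libraries of lowest slope, where 3 and 2 members were called (*Cstb* in place of *Ctsl* in the second). The cause of these changes was not tested. Over fits leaving out 1 library, the number of members called ran from 1 to 3 in both transgene comparisons. Calls over all genes in these fits ran from 164 to 386 in 5xFAD against WT and from 120 to 720 in Card9-/-5xFAD against Card9-/-. At the threshold of 0.05, calls over all genes were not counted. The number of members called was 0 in the Card9 comparisons and the interaction under every alternative run. Fits on only the groups compared cannot give the interaction.

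With the replicate block over all genotypes 3 members were called in each transgene comparison, with the replicate block within each Card9 genotype 8 and 9, and with the block and the length slope 7 and 8 (2175 and 2328 of all genes, and 242 in Card9-/- against WT). The block within each Card9 genotype, a pairing chosen from these same counts, raised the calls over all genes from 304 to 2322 and from 286 to 2966.

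Signs turned only for values that were not called. In 5xFAD against WT, *Cst3* was -0.060 with the length slope and -0.021 with block and slope, and *Ctsc* was -0.15 without the 3 libraries. In Card9-/-5xFAD against Card9-/-, *Ctsc* was 0.047 with at least 10 counts in every library, 0.36 with the slope and 0.28 with block and slope. In Card9-/-5xFAD against 5xFAD, *Cst3* was -0.045 with 1 surrogate variable and -0.32 without the 3 libraries, *Cstb* was -0.0065 without the filter, -0.22 with the replicate block, -0.30 with 1 surrogate variable and -0.76 without the 3 libraries, where *Ctsb* was 0.067 and *Ctsc* 0.074. In Card9-/- against WT, *Cstb* was 0.020 with the slope and 0.053 with block and slope, *Ctsb* was 0.084 and *Ctsc* 0.14 with 1 surrogate variable, and *Ctsc* was 0.056 with the replicate block. The interaction without the 3 libraries turned above 0 for all 7 cathepsins, among them *Ctsl* (0.090) and *Ctsz* (0.14), and below 0 for *Cstb* (-0.08). Leaving out 1 library, *Ctsc* ran from -0.18 to 0.38 in 5xFAD against WT and from -0.32 to 0.20 in Card9-/-5xFAD against Card9-/-. In Card9-/-5xFAD against 5xFAD, *Cst3* ran from -0.31 to 0.40, *Cstb* from -0.75 to 0.42, *Ctsb* from -0.47 to 0.073 and *Ctsc* from -0.47 to 0.081. In Card9-/- against WT, *Cst3* ran from -0.79 to 0.021, *Cstb* from -1.52 to 0.34, *Ctsb* from -0.36 to 0.15 and *Ctsc* from -0.31 to 0.26. The interaction ran from -0.082 to 0.28 for *Cst7*, from -0.47 to 0.10 for *Ctsl* and from -0.39 to 0.12 for *Ctsz*.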
